A study of Mus musculus with 10 samples.

Results

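The mitochondrially encoded RNAs of mouse skin were taken as every gene in the deposited expression tables whose symbol starts with mt-, and were split by symbol into ribosomal RNAs, transfer RNAs and messenger RNAs. Of the 9779 genes held by both tables, 17 met this rule. They were both mitochondrial rRNAs (mt-Rnr1 and mt-Rnr2), 8 of 22 annotated mitochondrial tRNAs (mt-Tv, mt-Tl1, mt-Ti, mt-Tq, mt-Tm, mt-Ta, mt-Tt and mt-Tp) and 7 of 13 annotated mitochondrial mRNAs (mt-Nd1, mt-Nd2, mt-Co1, mt-Nd4, mt-Nd5, mt-Nd6 and mt-Cytb). The other annotated mitochondrial genes were not analysed here.

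The 10 libraries came from C57/Bl6 mice of 6 to 8 weeks and were labelled as ear skin. In 4 of them the skin had received imiquimod and the solvent DMSO (the DMSO group), and in 4 imiquimod and benzamil (the benzamil group), with topical treatment for 6 days. The other 2 libraries carry the treatment label none (the untreated group). Imiquimod activates a Toll-like receptor and inflames mouse skin in a way that resembles psoriasis. Benzamil, a relative of amiloride, blocks the epithelial sodium channel ENaC. The untreated control is described as back skin in the design text but labelled as ear skin, so body site and treatment cannot be told apart in comparisons with the untreated group, nor can imiquimod and DMSO. Whether each library is a separate animal is not said in the labels, and p-values here reflect only library-to-library spread, which may be technical.

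Mitochondrial DNA is transcribed from both strands as long precursor RNAs that hold rRNAs, tRNAs and mRNAs in a row. In most places the tRNAs lie between the longer RNAs, and cutting them out by RNase P and ELAC2 frees the rRNAs and mRNAs on either side. The mRNAs encode core subunits of the respiratory chain and of ATP synthase, and the rRNAs form the mitochondrial ribosome that translates them. In mitochondria most mRNAs carry poly(A) tails, the rRNAs short stretches of added A, and the tRNAs an added CCA end.

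Several of the genes described here are neighbours on the mitochondrial chromosome. In GENCODE M21, on the mm10 build that the submitters' processing notes name, mt-Rnr1 (chrM:70-1024), mt-Tv (chrM:1025-1093), mt-Rnr2 (chrM:1094-2675), mt-Tl1 (chrM:2676-2750) and mt-Nd1 (chrM:2751-3707) follow each other on the + strand with no base between them. The same strand holds mt-Tm (chrM:3845-3913) directly before mt-Nd2 (chrM:3914-4951), and further on mt-Cytb (chrM:14145-15288). The - strand holds mt-Tq (chrM:3772-3842) and mt-Tp (chrM:15356-15422). The 4 tRNA genes with enough reads to be tested are shown whole, as their gene sequence 5′ to 3′ with the anticodon in capitals, because all calls in the tRNA class rest on them.
mt-Tv: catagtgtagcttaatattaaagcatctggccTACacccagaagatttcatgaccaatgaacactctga
mt-Tp: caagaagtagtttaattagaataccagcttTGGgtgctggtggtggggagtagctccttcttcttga
mt-Tm: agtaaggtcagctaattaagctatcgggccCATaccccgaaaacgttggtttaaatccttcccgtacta
mt-Tq: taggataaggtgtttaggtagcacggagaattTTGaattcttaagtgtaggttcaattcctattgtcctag

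The libraries were made with a 3′ mRNA kit, which primes from runs of A, so runs of at least 6 A within the RNAs were searched on the strand of the gene. mt-Rnr2 held 4 such runs and mt-Rnr1 held 0. mt-Nd1 held 1, with 82 bases after it to the end of the gene, and mt-Cytb held 0. Of the other mRNA genes tested, mt-Nd2 held 3 such runs, mt-Nd4 and mt-Nd5 2 each and mt-Co1 1, and none of these 4 differed past the threshold between benzamil and DMSO. The tested tRNA genes mt-Tv, mt-Tp, mt-Tm and mt-Tq held 0. The 4 stretches of mt-Rnr2 (chrM:1429-1484, chrM:1463-1519, chrM:1531-1586 and chrM:2245-2300, + strand) and that of mt-Nd1 (chrM:3595-3650, + strand) are given with the run of A in capitals, as those of the called genes that hold any.
mt-Rnr2 a: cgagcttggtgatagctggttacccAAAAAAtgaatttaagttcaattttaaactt
mt-Rnr2 b: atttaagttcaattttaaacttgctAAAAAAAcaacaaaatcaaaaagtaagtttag
mt-Rnr2 c: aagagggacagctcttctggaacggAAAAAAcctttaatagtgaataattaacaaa
mt-Rnr2 d: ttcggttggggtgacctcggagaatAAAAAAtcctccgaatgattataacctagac
mt-Nd1: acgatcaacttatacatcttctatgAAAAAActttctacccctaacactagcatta
A run of A is a description of the sequence. Gene counts do not show where in an RNA a read began, so the share of reads that began at such a run was not tested. Nor do they show whether a read counted for a tRNA gene came from the tRNA or from a precursor RNA that holds it.

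Depth differed between the groups. The reads per library over the 9779 genes ran from 259262 to 935714 with DMSO, from 138440 to 375455 with benzamil, and were 74614 and 71144 for untreated skin. A single read was therefore worth between 1.07 and 14.1 CPM (reads scaled to a common library total) before TMM scaling. Gene levels are given as CPM after TMM scaling, and gene tests are edgeR's quasi-likelihood test over 5245 genes that passed a filter on low counts, with Benjamini-Hochberg (BH) adjustment and a threshold of 0.05. Of the 17 mitochondrial genes, 12 passed the filter: both rRNAs, 4 of 8 tRNAs and 6 of 7 mRNAs. The labelled skin was checked against 10 keratinocyte markers, all present, with a summed level of 33374 to 41019 CPM after DMSO, 37270 to 40807 CPM after benzamil and 17955 to 18287 CPM without treatment.

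Mitochondrial rRNA took a larger share of the reads with benzamil than with DMSO, and mitochondrial mRNA a smaller mean share. The rRNAs held 17.8%, 21.6%, 21.6% and 23.9% of all reads in the DMSO libraries and 33.5%, 28.4%, 43.8% and 29.7% in the benzamil libraries, with 28.9% and 26.8% in the untreated libraries. The lowest benzamil library was above the highest DMSO library, and both untreated libraries were above the DMSO group. The group means were 21.2% ± 2.52 (SD, n = 4) with DMSO, 33.8% ± 6.99 (SD, n = 4) with benzamil and 27.8% ± 1.43 (SD, n = 2) in untreated skin. In bulk skin, fewer cells of a type and less RNA per cell cannot be told apart.

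Mitochondrial mRNA held 2.22%, 2.21%, 1.88% and 1.56% of all reads in the DMSO libraries and 1.24%, 1.67%, 0.766% and 0.745% in the benzamil libraries. These ranges overlapped, since benzamil replicate 2 lay above DMSO replicate 4. The 2 untreated libraries were far apart, at 1.08% and 1.87%. Mitochondrial tRNA held little: 185 reads in the 4 DMSO libraries, 183 in the 4 benzamil libraries and 34 in the 2 untreated libraries. As a share of all reads the tRNAs averaged 0.0111% ± 0.00338 (SD, n = 4), 0.0178% ± 0.00476 (SD, n = 4) and 0.0232% ± 0.00698 (SD, n = 2) in that order of groups. The DMSO and benzamil ranges of the tRNA share overlapped. Exact 95% binomial (Clopper-Pearson) intervals, which cover counting error only, were widest in untreated replicate 1 for the tRNA share, at 0.0174% to 0.043%, while its rRNA share of 28.9% had an interval of 28.5% to 29.2%.

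**Figure D1:**
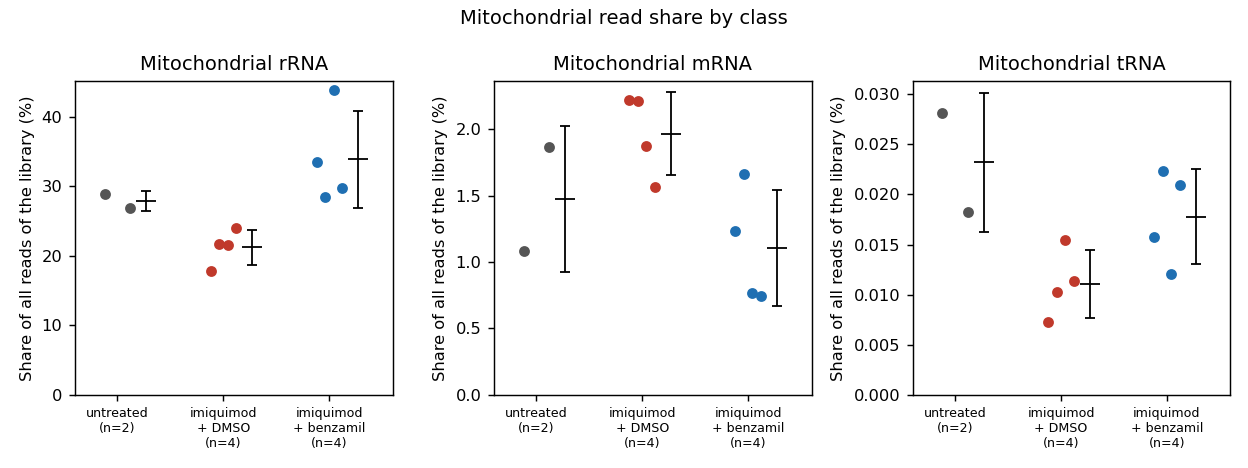
Share of all reads of a library (%, linear axes from 0) held by mitochondrial rRNA, mRNA and tRNA, with 1 point per library and the group mean ± SD beside the points. The rRNA shares of the 4 benzamil libraries lie between 28.4% and 43.8%, all above the DMSO libraries, whereas the mRNA and tRNA ranges of these 2 groups overlap.

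Within the mitochondrial reads alone, which need no scaling between libraries, the balance of rRNA to mRNA separated DMSO from benzamil. mRNA made up 11.1%, 9.29%, 8.00% and 6.13% of mitochondrial reads in the DMSO libraries and 3.56%, 5.54%, 1.72% and 2.45% in the benzamil libraries. The untreated libraries were at 3.62% and 6.50%, a range that overlapped both other groups. The means were 8.63% ± 2.09 (SD, n = 4) with DMSO, 3.32% ± 1.66 (SD, n = 4) with benzamil and 5.06% ± 2.04 (SD, n = 2) untreated. These are shares of reads and not of molecules. As a share of the reads outside mt-Rnr1, mt-Rnr2 and the cytosolic 18S rRNA locus Rn18s-rs5, the mitochondrial mRNA averaged 2.65% ± 0.374 (SD, n = 4) with DMSO and 1.71% ± 0.585 (SD, n = 4) with benzamil, and these ranges overlapped too.

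Benzamil against DMSO asks what the sodium channel blocker changes in imiquimod-treated skin. Of the 12 mitochondrial genes tested, 4 rose with benzamil (mt-Rnr2, mt-Tv, mt-Tp and mt-Tm) and 2 fell (mt-Nd1 and mt-Cytb), where 22.0% of all 5245 genes tested passed in either direction, 9.91% higher and 12.1% lower. The members' count is not independent of the filter: mt-Tv and mt-Tp passed it through benzamil and untreated libraries only, in which they were high, and mt-Tq through the untreated libraries only. The levels of 5 of the 12 did not overlap between benzamil and DMSO (mt-Rnr2, mt-Tv, mt-Tp, mt-Nd1 and mt-Cytb), against 24.5% of all genes tested, 11.1% higher and 13.4% lower.

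The 2 rRNAs behaved differently. mt-Rnr2, the rRNA of the large subunit of the mitochondrial ribosome, was at 131075, 156432, 159815 and 188683 CPM in the DMSO libraries and at 333172, 250684, 547631 and 289974 CPM in the benzamil libraries. All 4 benzamil libraries were above all 4 DMSO libraries, and benzamil replicate 3 was the highest of the study. mt-Rnr2 rose with benzamil by a log2 fold change of 1.16 ± 0.30 (SE; edgeR's quasi-likelihood test with BH adjustment, adjusted p = 0.00652). mt-Rnr1, the rRNA of the small subunit, was at 42121, 54164, 45806 and 45579 CPM with DMSO and at 47738, 46403, 58285 and 36262 CPM with benzamil. Its ranges overlapped, and its log2 fold change was 0.01 ± 0.24 (SE; edgeR's quasi-likelihood test with BH adjustment, adjusted p = 0.987), a sign that turned under 9 other settings.

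Cytosolic rRNA did not follow mt-Rnr2. Rn18s-rs5, a locus of the 18S rRNA of the cytosolic ribosome, averaged 45453 ± 7562 CPM (SD, n = 4) with DMSO and 26894 ± 6299 CPM (SD, n = 4) with benzamil. Its log2 fold change was -0.76 ± 0.28 (SE; edgeR's quasi-likelihood test with BH adjustment, adjusted p = 0.05, just under the threshold before rounding). This call was lost when any single DMSO or benzamil library was left out, with adjusted p between 0.0579 and 0.14 in the same test.

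Among the mRNAs, mt-Nd1 and mt-Cytb fell and the other 4 tested did not pass. mt-Nd1, a membrane subunit of complex I, was at 6974, 7117, 5459 and 4839 CPM with DMSO and at 2890, 3900, 2608 and 2351 CPM with benzamil. The groups did not overlap, and the untreated libraries (3109 and 4153 CPM) lay near the benzamil libraries. mt-Nd1 fell with benzamil by 1.05 ± 0.22 on the log2 scale (SE; edgeR's quasi-likelihood test with BH adjustment, adjusted p = 0.0014). It stayed past the threshold with any single library left out, when its log2 fold change ranged from -1.21 to -0.95.

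mt-Cytb encodes cytochrome b, the catalytic membrane subunit of complex III. It was at 4293, 4981, 3624 and 3378 CPM with DMSO and at 2272, 2598, 994 and 866 CPM with benzamil. The benzamil libraries fell into a higher and a lower pair, and the lower pair, replicates 3 and 4, were the 2 shallowest treated libraries. mt-Cytb fell by 1.26 ± 0.31 on the log2 scale (SE; edgeR's quasi-likelihood test with BH adjustment, adjusted p = 0.00476). Without benzamil replicates 3 and 4 its log2 fold change was -0.70 and the call was lost (adjusted p = 0.137 in the same test), and so was that of mt-Rnr2 (0.92, adjusted p = 0.061). The part of depth in these differences was not tested.

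The 4 other tested mRNAs had overlapping groups. mt-Nd2, another membrane subunit of complex I, averaged 3509.7 ± 517 CPM (SD, n = 4) with DMSO and 2787 ± 834 CPM (SD, n = 4) with benzamil, a log2 fold change of -0.33 ± 0.23 (SE; edgeR's quasi-likelihood test with BH adjustment, adjusted p = 0.315). mt-Nd4 and mt-Nd5, which form the far part of the proton-pumping arm of complex I, had log2 fold changes of -0.13 ± 0.29 and 0.13 ± 0.19 (SE; same test, adjusted p = 0.778 and 0.674). mt-Co1, the catalytic subunit of complex IV, averaged 382 ± 93.2 CPM (SD, n = 4) with DMSO and 382 ± 86.2 CPM (SD, n = 4) with benzamil. Its counts are uncertain: the last 300 bases of mt-Co1 are identical to the annotated nuclear transcript Gm29216, so reads could be shared between them.

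**Figure D2:**
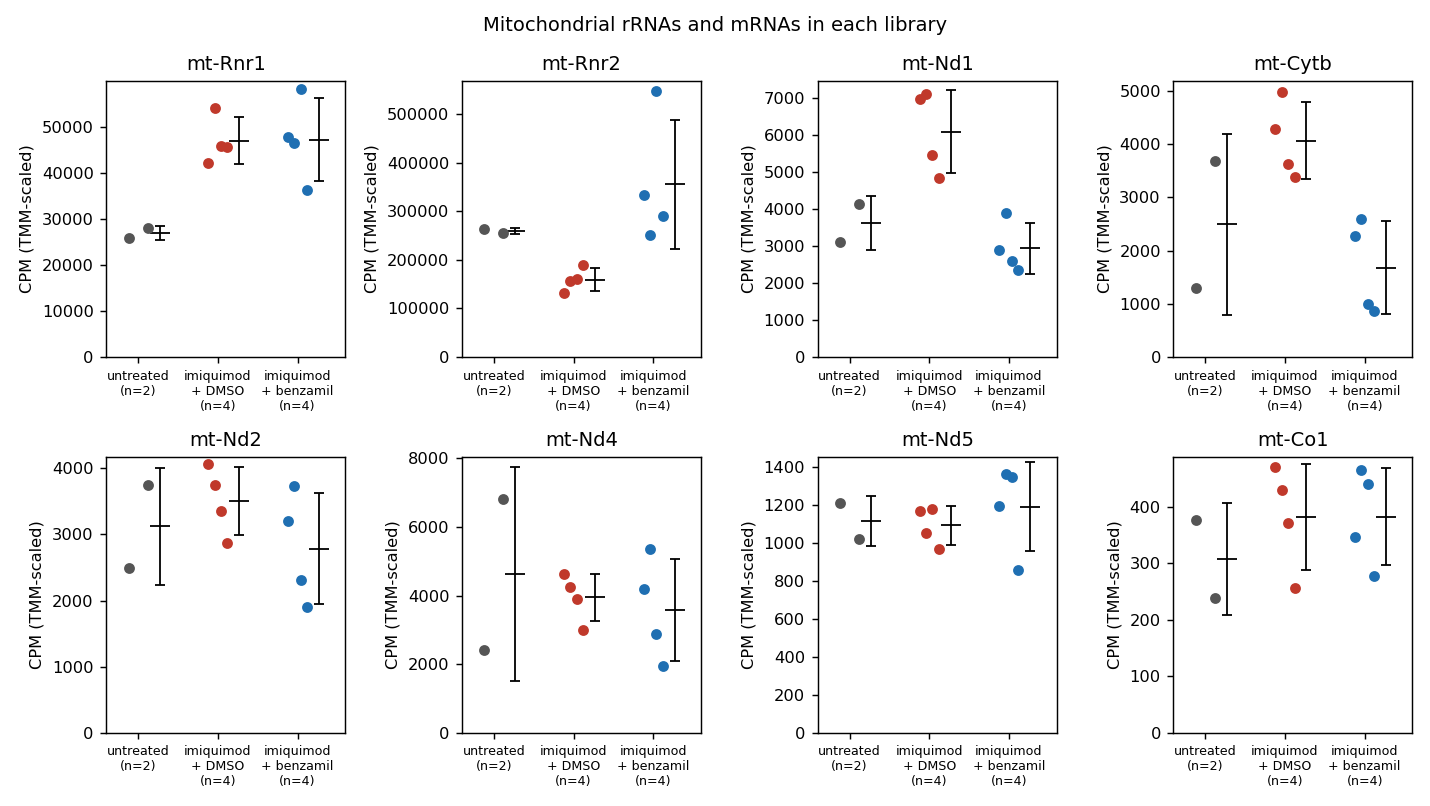
Level (TMM-scaled CPM, linear axes from 0) of the 2 mitochondrial rRNAs and the 6 tested mRNAs in each library, with the group mean ± SD beside the points. mt-Rnr2 is higher and mt-Nd1 and mt-Cytb are lower in all 4 benzamil libraries than in all 4 DMSO libraries, whereas mt-Rnr1, mt-Nd2, mt-Nd4, mt-Nd5 and mt-Co1 overlap.

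The composition of the mitochondrial mRNA shows the same 2 genes without any scaling. Together mt-Nd1 and mt-Cytb, a pair chosen after their values were seen, made up 52.2%, 56.0%, 50.7% and 53.7% of mitochondrial mRNA reads in the DMSO libraries and 36.6%, 37.3%, 34.0% and 39.2% in the benzamil libraries. The spread within a group was small beside the difference, and the 2 untreated libraries, at 40.4% and 39.8%, were closer to the benzamil group. mt-Nd5 averaged 5.80% ± 0.799 (SD, n = 4) of mitochondrial mRNA reads with DMSO and 9.88% ± 2.20 (SD, n = 4) with benzamil. mt-Nd4 averaged 20.6% ± 1.14 (SD, n = 4) and 27.8% ± 3.10 (SD, n = 4). The shares of mt-Nd2, mt-Co1, mt-Nd4 and mt-Nd5 were higher in every benzamil library than in every DMSO library, although none of these 4 genes passed the gene test; in a composition, the fall of some members raises the shares of the rest.

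The 4 tested tRNAs rest on few reads. mt-Tv, the valine tRNA whose gene lies between the 2 rRNA genes, was seen in 17, 11, 7 and 8 reads in the DMSO libraries and 20, 18, 9 and 4 reads in the benzamil libraries. On the CPM scale these are 17.7, 29.7, 25.8 and 22.2 with DMSO and 60.7, 60.1, 60.04 and 31.8 with benzamil. The groups did not overlap, and benzamil replicate 4 stood below the other 3. mt-Tv rose by a log2 fold change of 1.29 ± 0.34 (SE; edgeR's quasi-likelihood test with BH adjustment, adjusted p = 0.00806), and lost the call without DMSO replicate 1 (1.08, adjusted p = 0.0555 in the same test). Set against its neighbour, mt-Tv had 14.6 reads per 100000 mt-Rnr2 reads over the DMSO libraries and 16.8 over the benzamil libraries. These ranges overlapped, at 11.8 to 19.0 and 11.0 to 24.0. Over the untreated libraries it was 29.9, with 35.7 in replicate 1 and 23.2 in replicate 2, on 7 and 4 reads of mt-Tv.

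mt-Tp, the proline tRNA on the - strand, was seen in 5, 1, 2 and 5 reads with DMSO and 13, 5, 7 and 9 reads with benzamil. Its levels were 2.7 to 13.9 CPM and 16.7 to 71.5 CPM, without overlap. mt-Tp rose by a log2 fold change of 2.47 ± 0.55 (SE; edgeR's quasi-likelihood test with BH adjustment, adjusted p = 0.00231), and stayed past the threshold with any single library left out. It lies directly beyond mt-Tt on the opposite strand from mt-Cytb. The sources used here do not state whether reads were counted by strand, so reads of mt-Tp and of a precursor RNA running through it on the + strand cannot be told apart.

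mt-Tm, the methionine tRNA directly before mt-Nd2, was seen in 25, 14, 11 and 15 reads with DMSO and 15, 28, 6 and 11 reads with benzamil. The levels overlapped, at 26.0 to 41.6 CPM with DMSO and 40.03 to 93.5 CPM with benzamil. It passed the threshold with a log2 fold change of 0.94 ± 0.33 (SE; edgeR's quasi-likelihood test with BH adjustment, adjusted p = 0.0422). The call was lost under most other settings, DESeq2 (adjusted p = 0.157) and limma (adjusted p = 0.148) among them, and without DMSO replicate 1, 2 or 3 or benzamil replicate 2 or 4 (lowest log2 fold change 0.65, highest adjusted p = 0.241). mt-Tq, the glutamine tRNA, had 1 to 2 reads in each DMSO library and 0 to 3 in each benzamil library, and did not pass (0.97 ± 0.82, SE; adjusted p = 0.418 in the edgeR test).

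**Figure D3:**
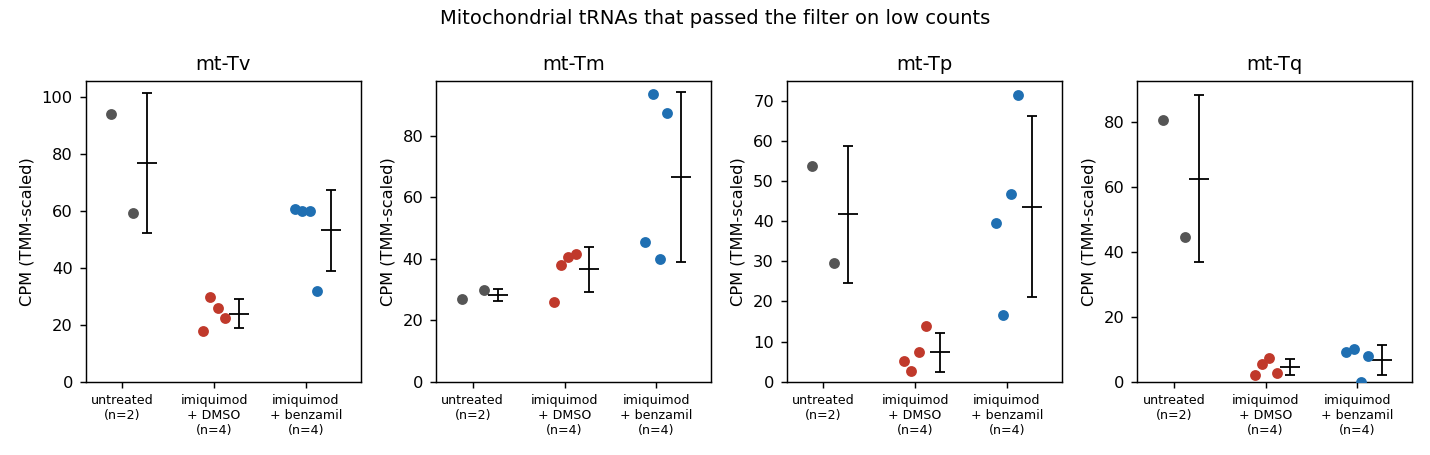
Level (TMM-scaled CPM, linear axes from 0) of the 4 mitochondrial tRNAs that passed the filter on low counts, with 1 point per library and the group mean ± SD beside the points. mt-Tv and mt-Tp separate the benzamil from the DMSO libraries, mt-Tm does not, and mt-Tq is high only in the 2 untreated libraries, all on between 0 and 28 reads per library.

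Ratios of 2 genes within a library describe the same shift without a scaling. mt-Rnr2 reads per mt-Rnr1 read were 3.11, 2.89, 3.49 and 4.14 in the DMSO libraries, 6.98, 5.40, 9.40 and 8.00 in the benzamil libraries, and 10.2 and 9.12 in the untreated libraries. The 3 groups lay in the order DMSO, benzamil, untreated, and benzamil replicate 3 reached the untreated range. The log2 ratio of mt-Rnr2 to mt-Rnr1 was 1.11 higher with benzamil than with DMSO (exact two-sided permutation test, p = 0.0286, the smallest that 4 against 4 libraries allow). That of mt-Rnr2 to mt-Nd1 was 2.17 higher, to mt-Nd2 1.48 higher and to mt-Cytb 2.53 higher, each with the same p in the same exact permutation test. Over the 7 ratios computed the adjusted p of these 4 was 0.05, which is not under the threshold. For mt-Co1 (1.10 higher), mt-Nd4 (1.32 higher) and mt-Nd5 (1.00 higher) the exact permutation p and its adjusted value were both 0.0571.

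Ratios between 2 mRNAs separated the DMSO libraries as well. mt-Nd1 reads per mt-Nd2 read were 1.71, 1.90, 1.63 and 1.69 with DMSO, 0.904, 1.04, 1.13 and 1.24 with benzamil, and 1.25 and 1.11 in untreated skin. mt-Cytb reads per mt-Nd4 read were 0.930, 1.17, 0.928 and 1.13 with DMSO, 0.544, 0.485, 0.345 and 0.445 with benzamil, and 0.536 and 0.541 in untreated skin. In both ratios every DMSO library was above every benzamil and every untreated library, and the latter groups overlapped. These 2 ratios were chosen after the values were seen, so they carry no test.

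**Figure D4:**
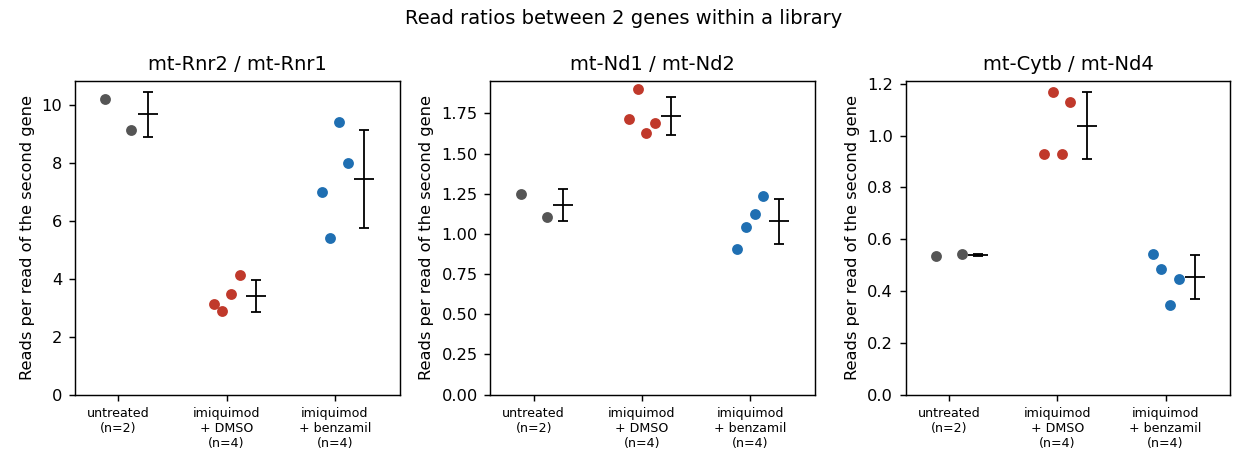
Reads of one gene per read of another within each library (linear axes from 0), for mt-Rnr2 to mt-Rnr1, mt-Nd1 to mt-Nd2 and mt-Cytb to mt-Nd4, with the group mean ± SD beside the points. The DMSO libraries stand apart in each panel: 2.89 to 4.14 reads of mt-Rnr2 per read of mt-Rnr1, against 5.40 to 9.40 with benzamil and 9.12 to 10.2 untreated.

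DMSO against untreated asks what imiquimod in DMSO changes in skin, and it shares its 4 DMSO libraries with the comparison above. Of the 12 tested mitochondrial genes, 0 rose and 2 fell (mt-Tv and mt-Tq) by edgeR's quasi-likelihood test, where 18.4% of all genes tested passed in either direction, 9.93% higher and 8.45% lower. At an unadjusted p under 0.05 the same test gave 2 higher and 3 lower. After adjustment DESeq2 gave 2 higher and limma 3 over all 17 genes, where they called 316 of 9779 and 2369 of 9820 genes higher. The levels of 6 of the 12 did not overlap (mt-Rnr1, mt-Rnr2, mt-Nd1, mt-Tv, mt-Tq and mt-Tp), against 48.0% of all genes tested, 29.5% higher and 18.6% lower.

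mt-Tq was at 2.1 to 7.4 CPM in the DMSO libraries and at 80.8 and 44.5 CPM, or 6 and 3 reads, in the untreated libraries. It fell by 3.96 ± 0.87 on the log2 scale (SE; edgeR's quasi-likelihood test with BH adjustment, adjusted p = 0.00252) and lost the call without untreated replicate 1 (-3.36, adjusted p = 0.119 in the same test). mt-Tv was at 94.2 and 59.3 CPM, or 7 and 4 reads, in the untreated libraries and fell by 1.76 ± 0.56 on the log2 scale (SE; same test, adjusted p = 0.0293). That call was lost without either untreated library or without DMSO replicate 1 (adjusted p = 0.0593 to 0.298). Neither gene passed the filter on low counts through a DMSO library: mt-Tq passed through the 2 untreated libraries only and mt-Tv through untreated and benzamil libraries, so this count of 2 lower is not independent of the filter.

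mt-Tp was seen in 4 and 2 reads in the untreated libraries, or 53.8 and 29.7 CPM, above all 4 DMSO libraries. Its log2 fold change was -2.57 ± 0.93 (SE; edgeR's quasi-likelihood test with BH adjustment, adjusted p = 0.053), just over the threshold. It passed in the same test after scaling by reads outside 3 rRNA genes (-2.72, adjusted p = 0.0425) or outside mt- genes and Rn18s-rs5 (-2.71, adjusted p = 0.0426), and without DMSO replicate 4 (-2.98, adjusted p = 0.0329) or benzamil replicate 2 (-2.58, adjusted p = 0.0412). DESeq2 (-2.57, adjusted p = 0.0366) and limma (-0.95, adjusted p = 0.0308) called it lower too. mt-Tp passed the filter through 1 benzamil and 1 untreated library.

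Both rRNAs had levels that did not overlap in this comparison, in opposite directions, but neither passed the edgeR test on all reads. mt-Rnr1 was at 25842 and 27987 CPM in untreated skin, below all DMSO libraries, with a log2 fold change of 0.80 ± 0.30 (SE; edgeR's quasi-likelihood test with BH adjustment, adjusted p = 0.0652). It passed in the same test after scaling by total reads (0.90, adjusted p = 0.0428) and with DESeq2 (0.85, adjusted p = 0.000864). mt-Rnr2 was at 263956 and 255173 CPM, above all DMSO libraries, with a log2 fold change of -0.71 ± 0.35 (SE; same edgeR test, adjusted p = 0.158), and passed with every library thinned to the depth of the shallowest (-0.87, adjusted p = 0.0444 in that test). The log2 ratio of mt-Rnr2 to mt-Rnr1 was 1.52 lower with DMSO than untreated (difference -1.52; exact two-sided permutation test, p = 0.0667, the smallest that 4 against 2 libraries allow, so this design cannot pass). mt-Nd1 had a log2 fold change of 0.75 ± 0.28 (SE; same edgeR test, adjusted p = 0.063). It passed without the filter (0.98, adjusted p = 0.0193 in the edgeR test), with DESeq2 (0.80, adjusted p = 0.0282) and with limma (0.83, adjusted p = 0.0345). mt-Cytb had a log2 fold change of 0.71 ± 0.39 (SE; same edgeR test, adjusted p = 0.206) and passed without untreated replicate 2 (1.76, adjusted p = 0.0207). The authors' deposited table of untreated over DMSO has mt-Rnr1 (-0.89) and mt-Nd1 (-0.83) lower and mt-Rnr2 (0.60) and mt-Tq (3.00) higher in untreated skin on the log2 scale, each with a deposited adjusted p-value under 0.05.

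Benzamil against untreated asks how far treated skin remains from the untreated state, and it shares its libraries with both comparisons above. Here 0 of the 12 tested mitochondrial genes rose and 1 fell (mt-Tq) by edgeR's quasi-likelihood test, where 4.0% of all genes tested passed, 2.44% higher and 1.56% lower. The levels of 3 of the 12 did not overlap (mt-Rnr1 and mt-Tm higher with benzamil, mt-Tq lower), against 32.4% of all genes tested, 19.5% higher and 12.9% lower. At an unadjusted p under 0.05 it gave 1 higher and 1 lower, and DESeq2, which gave an adjusted p for 10 of the 12, called 1 higher, mt-Rnr1 (0.78, adjusted p = 0.005), and 0 lower. mt-Tq fell by 2.99 ± 0.86 on the log2 scale (SE; edgeR's quasi-likelihood test with BH adjustment, adjusted p = 0.0464), and lost that call in 7 of the 10 fits that leave out 1 library (adjusted p up to 0.294). It passed the filter through the untreated libraries only, so this call is not independent of the filter either. The log2 fold changes of mt-Rnr2 (0.45, adjusted p = 0.516), mt-Nd1 (-0.30, adjusted p = 0.57) and mt-Cytb (-0.55, adjusted p = 0.436) did not pass in the edgeR test. With 2 shallow untreated libraries, a missed threshold does not show that levels were alike.

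**Figure D5:**
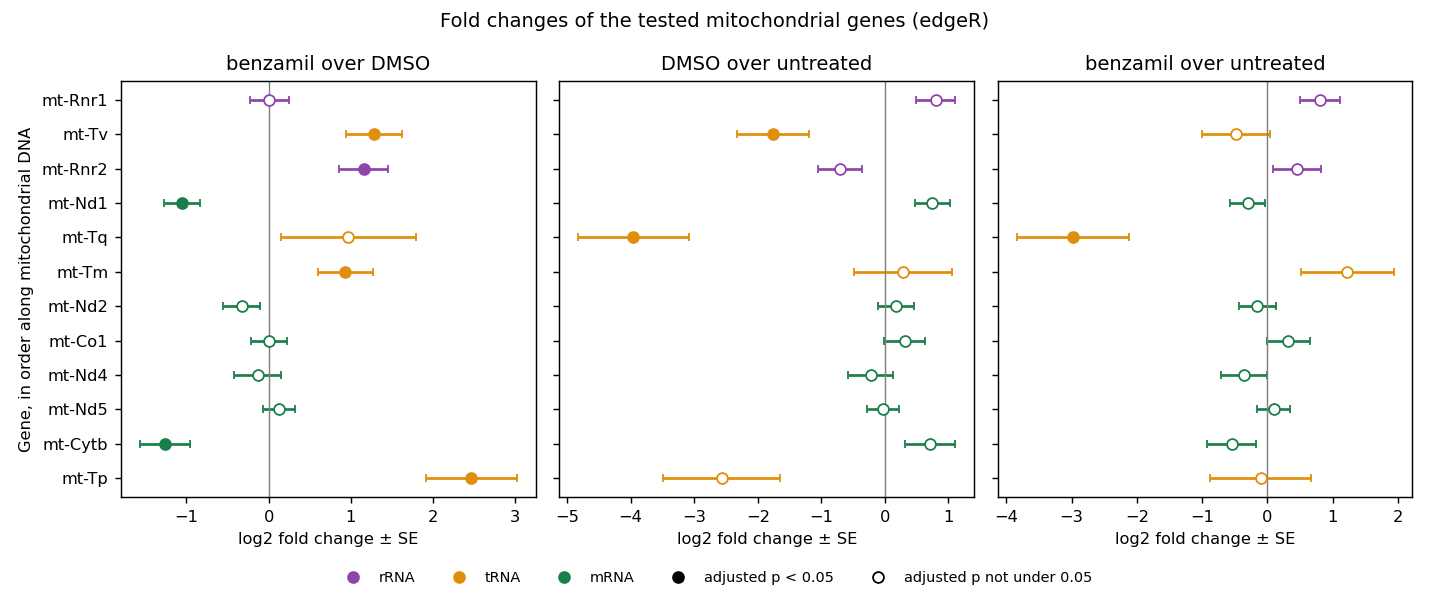
Log2 fold change ± SE (linear axes) of the 12 tested mitochondrial genes in the 3 comparisons, in their order along mitochondrial DNA. Filled symbols mark an adjusted p under 0.05 in edgeR's quasi-likelihood test: 4 genes above and 2 below 0 for benzamil over DMSO, 2 below 0 for DMSO over untreated and 1 below 0 for benzamil over untreated.

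The authors' deposited table of benzamil over DMSO gives an adjusted p-value for 12 of the 17 mitochondrial genes. In that table mt-Rnr2 (1.06), mt-Tp (1.598) and mt-Tv (0.97) are higher and mt-Nd1 (-1.01) and mt-Cytb (-1.13) lower with benzamil on the log2 scale, each with a deposited adjusted p-value under 0.05.

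The remaining 5 mitochondrial genes were too low to be tested. Over all 10 libraries mt-Tt (threonine tRNA) had 32 reads, mt-Tl1 (leucine tRNA) 24, mt-Nd6 (a complex I subunit, the only mRNA of the - strand) 23, mt-Ta (alanine tRNA) 22 and mt-Ti (isoleucine tRNA) 14. In a single library mt-Nd6 reached at most 12 reads, in DMSO replicate 1, and mt-Ti at most 6, in DMSO replicate 4. Both untreated libraries had 0 reads of mt-Tt and of mt-Ti, where 3 reads, the limit that a count of 0 allows, equal 40.2 and 42.2 CPM before scaling, above the level of either gene in every treated library. A fit without the filter gave no call for any of the 5 in any comparison (edgeR's quasi-likelihood test with BH adjustment, lowest adjusted p = 0.303).

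Nuclear copies of mitochondrial DNA can share reads with mitochondrial mRNAs. The last 300 bases of each mitochondrial RNA, or the whole gene where shorter, were compared with the annotated nuclear transcripts. Among the 6 mRNAs not analysed here, 5 (mt-Co2, mt-Atp6, mt-Co3, mt-Nd3 and mt-Nd4l) had a nuclear match of at least 98% identity over at least 98% of the stretch. Among the 7 analysed, only mt-Co1 had one. The nearest match was 96.7% identical for mt-Nd2 (Gm13339), 92.6% for mt-Cytb (Gm11410) and 83.2% for mt-Nd1 (Gm48258). mt-Rnr2 matched 246 bases of Cep295 at 82.9%, and mt-Rnr1 had no match.

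Few nuclear genes that serve mitochondrial RNA had enough reads to be tested between benzamil and DMSO. Among genes of mitochondrial transcription 0 of 2 tested passed, among those of RNA processing and stability 0 of 8, of rRNA modification and ribosome assembly 0 of 1, and of the regulators of mitochondrial biogenesis 0 of 4 (edgeR's quasi-likelihood test with BH adjustment). At an unadjusted p under 0.05 these lists gave 0, 1 lower, 0 and 0, and both DESeq2 and limma called 0 in each. Their median log2 fold changes were -0.44, -0.34, -0.60 and 0.08, where the median of all genes tested was -0.01. With 22.0% of all genes tested called in this comparison, 0 calls on lists this short do not show that these genes kept their level. Among 3 tested genes of tRNA modification, Nsun2, which methylates cytosines of tRNAs, rose by 0.59 ± 0.21 (SE; edgeR's quasi-likelihood test with BH adjustment, adjusted p = 0.0408), a call that DESeq2, limma and scaling by total reads did not give. The median of the 3 was -0.75. At an unadjusted p under 0.05, 1 was higher and 2 were lower, and scaling by total reads called 0 higher and 2 lower.

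Nuclear genes for abundant mitochondrial proteins and for respiratory chain subunits were lower with benzamil more often than higher. Of 14 tested genes used as markers of mitochondrial content, 11 fell and 0 rose, with a median log2 fold change of -1.01, where 12.1% of all genes tested were called lower and 9.91% higher. Slc25a5, an ADP/ATP carrier, had a log2 fold change of -2.34, Hspa9, the mitochondrial Hsp70 chaperone, of -1.38, Phb2, a prohibitin of the inner membrane, of -1.39, and Tomm40, the pore of the outer membrane import complex, of -2.80 (adjusted p = 3.23e-06, 5.86e-05, 0.000942 and 0.00155 by edgeR's quasi-likelihood test with BH adjustment). Tomm40 averaged 43.6 CPM with DMSO, 4.63 ± 7.20 CPM (SD, n = 4) with benzamil and 6.73 CPM untreated. A single read in a benzamil library was worth 2.66 to 7.22 CPM before TMM scaling, so its fold change rests on very few reads. Only its DMSO mean was above the filter's cut of 34.9 CPM before TMM scaling. Its call, and with it the count of 11, is not independent of the filter. Without benzamil replicates 3 and 4, 5 of the 14 fell, where 300 of 5527 genes tested were lower. Of 69 tested nuclear genes listed under complexes I, III, IV and V, 17 fell and 3 rose, with a median of -0.45. Over all genes the shares were the same 12.1% lower and 9.91% higher. These lists also hold Cox7a2l, an assembly factor, and Atpif1, an inhibitor, which are among the 3 that rose. Without those 2 libraries 9 of the listed genes fell and 2 rose, where 300 of 5527 genes were lower and 284 higher. After scaling by total reads 31 fell and 2 rose, where 1009 of 5245 genes were lower and 248 higher.

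Nuclear genes listed under complexes I and III, the complexes of mt-Nd1 and mt-Cytb, fell with benzamil more often than they rose. In benzamil over DMSO 12.1% of all genes tested were called lower and 9.91% higher. On the list of complex I, the complex of mt-Nd1, 8 of 35 nuclear genes fell and 1 rose, with Ndufa4 at -2.88 and Ndufa1 at -1.91. Ndufa4 is counted there, although it is now known as a subunit of complex IV. Ndufa1 averaged 54.8 CPM with DMSO, 12.9 CPM with benzamil and 28.3 CPM untreated. Only its DMSO mean was above the filter's cut of 34.9 CPM before TMM scaling, so its call is not independent of the filter. In complex III, the complex of mt-Cytb, 3 of 10 fell and 0 rose, among them the Rieske protein gene Uqcrfs1 (-1.43) and the cytochrome c1 gene Cyc1 (-1.40). In complex IV 3 of 11 fell, Cox7c (-1.09) and Cox6a1 (-0.82) among them, and Cox7a2l, a factor of supercomplex assembly, rose (1.44). In complex V 3 of 13 fell, with Atp5g3 (-1.87) and Atp5b (-1.40), and Atpif1, an inhibitor of ATP synthase, rose (0.95). These log2 fold changes all passed edgeR's quasi-likelihood test with BH adjustment. In DMSO over untreated, 8 of the 14 content markers rose and 0 fell (median 1.44, all genes 0.18). Of the 69 nuclear genes listed under the complexes 11 rose and 1 fell (median 0.90). Over all genes tested, 9.93% were called higher and 8.45% lower in DMSO over untreated. DESeq2 called 5 content markers and 5 listed genes higher, and limma 12 and 19. Scaling by reads outside mt- genes and Rn18s-rs5 gave 7 and 7. Over all genes these settings called 316 of 9779, 2369 of 9820 and 431 of 5245 higher, in that order.

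Markers of other cell types differed between the same groups. Of 18 skeletal muscle markers, a tissue rich in mitochondria, 17 were in the tables and their summed level was 375 to 1538 CPM with DMSO, 1001 to 2126 CPM with benzamil and 3767 to 4321 CPM in untreated skin. With benzamil 8 of 14 tested muscle markers rose over DMSO and 0 fell, where 9.91% of all genes tested were called higher and 12.1% lower. DESeq2 called 1 of these rises, where it called 327 of 9779 genes higher. No muscle marker in the tables was at 0 throughout a group. Of 10 neutrophil markers, 6 were in the tables, and 4 of 4 tested fell with benzamil. The 6 summed to 11110 to 18365 CPM with DMSO, 227 to 4296 CPM with benzamil and 44.5 to 229 CPM in untreated skin. Most of the sum with DMSO was S100a8 (mean 7573 CPM) and S100a9 (mean 7730 CPM), while Cxcl2 and Cxcr2 averaged 84.2 and 53.2 CPM. With benzamil Cxcl2 and Cxcr2 averaged 13.6 and 14.4 CPM, and both were at 0 in untreated skin. Only their DMSO means were above the filter's cut of 34.9 CPM before TMM scaling. The count of 4 that fell is therefore not independent of the filter. Whether the sum follows the number of neutrophils was not tested. Both untreated libraries had 0 reads of 3 of these 6, among them Cxcr2, the neutrophil chemokine receptor. Of 9 fibroblast markers, 8 were in the tables, at 537 to 1060, 727 to 2271 and 8350 to 19018 CPM in the same order, and of 10 adipocyte markers 3 were in the tables, at 85.2 to 164, 103 to 217 and 148 to 349.9 CPM. With benzamil 2 of 6 tested fibroblast markers rose over DMSO and 0 fell, and 0 of 3 tested adipocyte markers passed. Of the fibroblast markers that rose, Dpt averaged 15.7 CPM with DMSO, below the filter's cut, and 44.8 CPM with benzamil. Its call is not independent of the filter. The part of these cell types, of depth and of the cytosolic rRNA share in the differences among mitochondrial RNAs was not tested.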

How the data were processed

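RNA from 10 skin libraries was read with a 3′ mRNA kit from 500 ng of RNA, per the labels' protocols. STAR, featureCounts, DESeq2 and mm10 are named in the submitters' processing notes; no version is given in the sources used here, nor is it stated whether molecular identifiers were collapsed. The authors deposited variance-stabilised log2 values in 2 tables, benzamil with DMSO and untreated with DMSO, each beside a comparison table with a mean signal, a log2 fold change, a test score and p-values. The deposited log2 values were inverted to whole reads (100% of values whole within 0.001 reads in every library). All 39116 DMSO values were equal in both tables, which were joined on 9779 genes. The tests therefore use recovered counts, and the lowest gene total in either table is 10 reads. A further deposited table holds counts for human gene identifiers and enters no comparison.

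edgeR 4.0.16 (quasi-likelihood, TMM scaling, filterByExpr with at least 10 reads, all 10 libraries in 1 fit with a mean per group, Benjamini-Hochberg over 5245 genes) is the main test. The SE is the log2 fold change divided by the root of F, an approximation. Read ratios were tested by exact permutation. The procedure was tested on simulated data. Alternatives were other scalings (RLE, total reads, reads outside rRNA or outside mt- genes), no filter, DESeq2 1.42.0, limma 3.58.1 on the deposited log2 values, each table alone, thinning to 71144 reads, a replicate block and leaving out libraries. Sequences and positions are from GENCODE M21, and nuclear copies were searched with blastn 2.17.0. Every mt- gene is named, and from each nuclear list up to 4 called genes by smallest adjusted p. The members and lists were chosen with earlier results of these data known.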

Additional observations from a re-analysis of the deposited data

Results flagged for a closer look

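In benzamil replicate 4, mt-Tv was at 31.8 CPM on 4 reads, far below the other 3 benzamil libraries (60.04 to 60.7 CPM) by Dixon's criterion. It was the only one of 44 groups of 4 libraries checked that met this criterion, which chance alone meets in about 1 in 20 groups.

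A deposited count table that enters no comparison holds 61533 gene identifiers, all human, although the libraries are labelled as mouse, with totals of 8752 to 136930 counts per library. Its MT-RNR2, the human counterpart of mt-Rnr2, held 0.369%, 0.302%, 0.261% and 0.187% of the counts in the DMSO libraries, above 0.115% and 0.114% in the untreated libraries, and 0.0684%, 0.0988%, 0.0587% and 0.0064% in the benzamil libraries. These shares rest on 505, 153, 94 and 88 counts with DMSO, 12 and 10 untreated, and 30, 39, 12 and 1 with benzamil. Where these counts come from was not tested.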

How the results depend on the processing

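In benzamil over DMSO, the calls of mt-Nd1 and mt-Tp held under every alternative that could test them, whereas those of mt-Rnr2, mt-Cytb, mt-Tv and mt-Tm were each lost under at least 1 (mt-Rnr2 with limma, 1.08, adjusted p = 0.173). Thinned to 71144 reads, 1 mitochondrial gene was higher.

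Scaling by total reads put the median of all genes at -0.26 in benzamil over DMSO and called 248 higher and 1009 lower, 19.7% higher against 45.0% with TMM. It called 1 mitochondrial gene higher in DMSO over untreated, and in benzamil over untreated 63 genes higher (37.5% of its calls, against 61.0%). Scaling by reads outside 3 rRNA genes, or outside mt- genes and Rn18s-rs5, called 127 genes lower there (42.5% and 40.9% of calls higher). Without the filter, 200 were higher there, and 2 mitochondrial genes were higher and 1 lower in DMSO over untreated. DESeq2 called 327 genes higher in benzamil over DMSO and 316 in DMSO over untreated, with 2 mitochondrial genes higher, and 1 in benzamil over untreated. limma called 2 mitochondrial genes higher in benzamil over DMSO, and 2369 genes, 3 of them mitochondrial, higher in DMSO over untreated. Thinning gave 159 higher and 137 lower in benzamil over DMSO, and 220 higher and 226 lower, with 1 mitochondrial gene lower, in DMSO over untreated. In benzamil over untreated the count of 1 mitochondrial gene lower became 0 without the filter, with DESeq2 and after thinning.

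Deviations of same-numbered DMSO and benzamil libraries correlated at 0.000688 to 0.0686, and those of differently numbered ones at -0.129 to 0.17. Correlations this weak in shallow libraries cannot show whether the numbers pair the libraries. With a replicate block, 2 mitochondrial genes were higher in DMSO over untreated, and 84 genes were higher and 0 mitochondrial genes lower in benzamil over untreated. Those 2 were mt-Nd1 (0.97, adjusted p = 0.0159 in the edgeR test) and mt-Cytb (1.27, adjusted p = 0.0135), and mt-Tp was lower (-3.20, adjusted p = 0.0192). The block turned mt-Rnr1 in benzamil over DMSO (-0.0068), mt-Nd4 (0.24) and mt-Nd5 (0.039) in DMSO over untreated, and mt-Nd2 (0.075) and mt-Nd4 (0.011) in benzamil over untreated.

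Other signs that turned belong to genes that did not pass. In benzamil over DMSO, mt-Co1 was -0.053 (RLE), -0.27 (total reads), -0.020 and -0.033 (outside rRNA, outside mt- genes), -0.039 (no filter), -0.071 (DESeq2), -0.011 (limma) and -0.094 (thinned), mt-Rnr1 -0.046, -0.28, -0.032, -0.045, -0.038, -0.064, -0.027 and -0.0034 in that order, and mt-Nd5 -0.15 (total reads). In DMSO over untreated, mt-Nd2 was -0.033 (thinned), mt-Nd4 0.0029 (no filter) and 0.035 (limma), and mt-Nd5 0.063 (total reads), 0.20 (no filter), 0.011 (DESeq2) and 0.061 (limma). In benzamil over untreated, mt-Nd2 was 0.035 and mt-Tp 0.069 (no filter), and mt-Nd5 -0.086 (total reads), -0.071 and -0.079 (outside rRNA, outside mt- genes) and -0.11 (thinned).

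With 1 library left out in turn, genes higher and lower ranged over 291 to 632 and 356 to 799 in benzamil over DMSO, 225 to 532 and 208 to 448 in DMSO over untreated, and 63 to 141 and 36 to 92 in benzamil over untreated. Mitochondrial genes higher ranged over 2 to 4 in the first (2 without DMSO replicate 1) and 0 to 1 in the second comparison, and lower over 0 to 3 in the second and 0 to 1 in the third. Log2 fold changes ranged over -0.15 to 0.13 (mt-Co1), -0.38 to 0.078 (mt-Nd4) and -0.12 to 0.12 (mt-Rnr1) in benzamil over DMSO, over 0.23 to 1.76 (mt-Cytb), -0.0035 to 0.60 (mt-Nd2), -0.70 to 0.82 (mt-Nd4) and -0.067 to 0.19 (mt-Nd5) in DMSO over untreated, and over -1.02 to 0.49 (mt-Cytb), -0.47 to 0.010 (mt-Nd1), -0.33 to 0.26 (mt-Nd2), -0.83 to 0.67 (mt-Nd4), -0.37 to 0.49 (mt-Tp) and -0.67 to 0.0014 (mt-Tv) in benzamil over untreated. The difference in class share ranged over 9.29 to 14.4 percentage points (rRNA of all reads, benzamil minus DMSO), and for DMSO minus untreated over -0.0171 to -0.0072 (tRNA of all reads), -0.0465 to -0.0162 (tRNA of mitochondrial reads) and 0.103 to 0.885 (mRNA of all reads). The log2 ratio of mt-Rnr2 to mt-Rnr1 ranged over 0.99 to 1.26 in benzamil over DMSO. Its adjusted exact permutation p ranged from 0.0333, without benzamil replicate 2, to 0.1, and was under the threshold in only 1 of these fits. The log2 ratio of mt-Rnr2 to mt-Nd4 ranged over -1.44 to 0.11 in DMSO over untreated. Without benzamil replicates 3 and 4 together, 284 genes were higher and 300 lower in benzamil over DMSO, 2 and 1 of them mitochondrial, with mt-Nd2 at 0.025 and mt-Nd4 at 0.31. In benzamil over untreated that left 43 genes lower, 0 of them mitochondrial, with mt-Nd2 at 0.17 and mt-Nd4 at 0.068. The cause of these differences was not tested.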
